A study of Mus musculus with 6 samples.

Results

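The genes described here are the small nucleolar RNA (snoRNA) genes of mouse haematopoietic stem cells, taken as every gene whose symbol in the platform annotation starts with Snord or Snora. Transcript clusters annotated with several symbols were left out, and a gene with several clusters was read from the cluster of highest mean over the 6 arrays. This gave 73 genes of 22180 genes with a symbol of their own, 47 of the box C/D class (Snord) and 26 of the box H/ACA class (Snora). A further 43 clusters whose several symbols included a Snord or Snora gene were not used. Signals were read on 6 Affymetrix mouse gene ST arrays, 3 labelled wild type (WT) and 3 labelled Chrm1-/-, which lack the M1 muscarinic acetylcholine receptor according to the genotype label. All 6 samples were bone marrow stem cells of C57Bl/6 mice at steady state, sorted as Lineage-, Sca1+, cKit+ and Flt3-. No treatment is named for either genotype, and the labels give neither the age of the mice, the design of the deleted allele, nor whether each array holds a separate mouse. If they do not, the p-values describe no more than the scatter of these samples, part of which may be technical.

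SnoRNAs are short nuclear RNAs that guide the chemical modification of ribosomal RNA and small nuclear RNA. Box C/D snoRNAs carry fibrillarin, Nop56, Nop58 and Snu13 and direct methylation of the ribose, whereas box H/ACA snoRNAs carry dyskerin, Nhp2, Nop10 and Gar1 and direct the conversion of uridine to pseudouridine. A few members of both classes take part in cutting the ribosomal RNA precursor instead. Most mammalian snoRNAs lie in introns of host genes, many of them genes for ribosomal proteins and translation factors or noncoding host transcripts, and are released when the intron is spliced out and trimmed. A probe against an intronic snoRNA also matches the unspliced host transcript, so a signal does not tell these RNAs apart.

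In RefSeq, box C/D members were between 48 and 221 bases long with a median of 68 bases, and box H/ACA members between 56 and 205 bases with a median of 118.5 bases. The H/ACA class is named after a hinge motif and an ACA that stands near the end of the RNA. Sequences were at hand for 2 H/ACA members that overlap an annotated microRNA hairpin, and whether other members overlap one is not reported here. These 2 sequences are shown because a signal for these members cannot be assigned to the snoRNA alone. The first lies in Eif3a, a translation initiation factor gene, at chr19:60774329-60774397 on the minus strand, where the Mir3084-2 hairpin holds all 56 bases of Snora19. The second lies in Kansl2 at chr15:98519762-98519878 on the minus strand, where the Mir1291 hairpin shares 73 of the 118 bases of Snora34. Coordinates and sequences are those of the RefSeq hairpins on GRCm38.p6. The shared bases read, 5′ to 3′ and with the ACA that stands 3 bases before the end of the Snora19 gene in capitals:
Snora19: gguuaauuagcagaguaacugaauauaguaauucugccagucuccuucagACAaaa
Snora34, shared part: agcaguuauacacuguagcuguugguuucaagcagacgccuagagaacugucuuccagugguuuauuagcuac

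On this platform, Snora19 read 6.66, 6.17 and 7.60 on the WT arrays and 6.48, 6.59 and 6.48 on the Chrm1-/- arrays. Its level was lower than that of the median gene, and the groups overlapped. Snora34 read 4.94, 4.06 and 5.09 on the WT arrays and 6.80, 8.63 and 4.15 on the Chrm1-/- arrays. The first 2 Chrm1-/- arrays were above every WT array and the third was among the lowest values, so these groups overlapped as well. All of these are log2 signals, on which a step of 1 is a doubling.

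Across the series, array medians lay between 6.49 and 6.57 and upper quartiles between 7.79 and 7.88, so the arrays were on a common scale. The transcript cluster for Chrm1 itself was not lower on the Chrm1-/- arrays: it read 7.45, 7.44 and 7.67 in WT and 8.16, 7.52 and 7.58 in Chrm1-/-. Neither the position of its probes nor the extent of the deletion is stated in the labels or files, so this cluster does not check the labels, and each direction stated for Chrm1-/- rests on the label alone. Of the stem and progenitor cell markers, 6 were on the array, between percentiles 70.9 and 98.1 of all genes. Some markers of other cells lay as high, such as Mpo (granulocytes) at percentile 98.2 and Nkg7 (T and NK cells) at 95.4. Of the 6 stem and progenitor markers, Procr alone had an unadjusted limma p under 0.05. It read 8.40, 8.45 and 8.50 in WT and 8.16, 8.19 and 8.24 in Chrm1-/-. Of 19 markers of other blood, stromal and endothelial cells, 9 passed the signal filter and 1 of these, Cd68 (monocytes and macrophages), had an unadjusted limma p under 0.05, with 8.79, 9.0 and 10.25 in WT and 8.47, 8.16 and 8.19 in Chrm1-/-. The log2 signals of all 19 summed to between 138.47 and 142.45 in WT and between 136.05 and 140.86 in Chrm1-/-. The part of these differences in the snoRNA values was not tested. In bulk samples fewer cells of a type and less RNA per cell cannot be told apart.

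The snoRNA genes spanned nearly the whole scale of the array, and the 2 classes lay close together. Mean signals of the box C/D genes ran from 3.90 to 11.96 with a median of 7.20 and quartiles of 6.24 and 8.89. Mean signals of the box H/ACA genes ran from 3.97 to 11.98 with a median of 6.82 and quartiles of 6.25 and 8.88. The median of all genes was 6.77, with quartiles of 5.82 and 8.03. Both classes therefore had a median near that of all genes and an upper quartile above it, and 7 of 47 C/D genes (14.9%) and 4 of 26 H/ACA genes (15.4%) lay in the top 10% of signals, which began at 9.56. Probe sets differ in how well they bind, so these are distributions of signals and not an order of abundance.

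Among the box C/D genes, the highest mean signals were those of Snord104 (11.96), Snord47 (11.01), Snord13 (10.96), Snord22 (10.50), Snord65 (10.40), Snord8 (10.32), Snord72 (9.82) and Snord87 (9.55). Snord47 and Snord22 lie in the noncoding host transcripts Gas5 and Snhg1, Snord87 in Snhg6 and Snord72 in the ribosomal protein gene Rpl37. Snord104 was also the steadiest of these 8, with 11.81, 12.01 and 12.25 in WT and 11.76, 12.00 and 11.94 in Chrm1-/-. Its arrays stayed within 0.49 log2 units of each other, and the groups overlapped. Snord22 read 10.65, 10.10 and 10.71 in WT and 10.23, 10.88 and 10.44 in Chrm1-/-, again overlapping. Snord65, by contrast, was far below its other values on 1 WT array, as described with its host.

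Among the box H/ACA genes, the highest mean signals were those of Snora33 (11.98), Snora31 (11.82), Snora75 (11.27), Snora23 (10.29), Snora7a (9.16), Snora21 (9.15), Snora44 (9.09) and Snora30 (8.27). Their hosts include Rps12, Rpl32 and Rpl23, which encode ribosomal proteins, Tpt1, which encodes the translationally controlled tumour protein, and Ncl, which encodes nucleolin. Snora33 read 12.19, 11.92 and 11.66 in WT and 11.91, 12.09 and 12.08 in Chrm1-/-. A further cluster for Snora33 had a lower mean signal, 9.21, and its WT mean and Chrm1-/- mean differed by 0.91 where those of the cluster used differed by 0.10. Snora7a, in contrast to Snora33, read 10.37, 10.29 and 6.52 in WT and 10.05, 6.93 and 10.78 in Chrm1-/-. In each group 2 arrays of Snora7a were high and 1 was low, so its mean describes none of the 6 arrays.

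**Figure D1:**
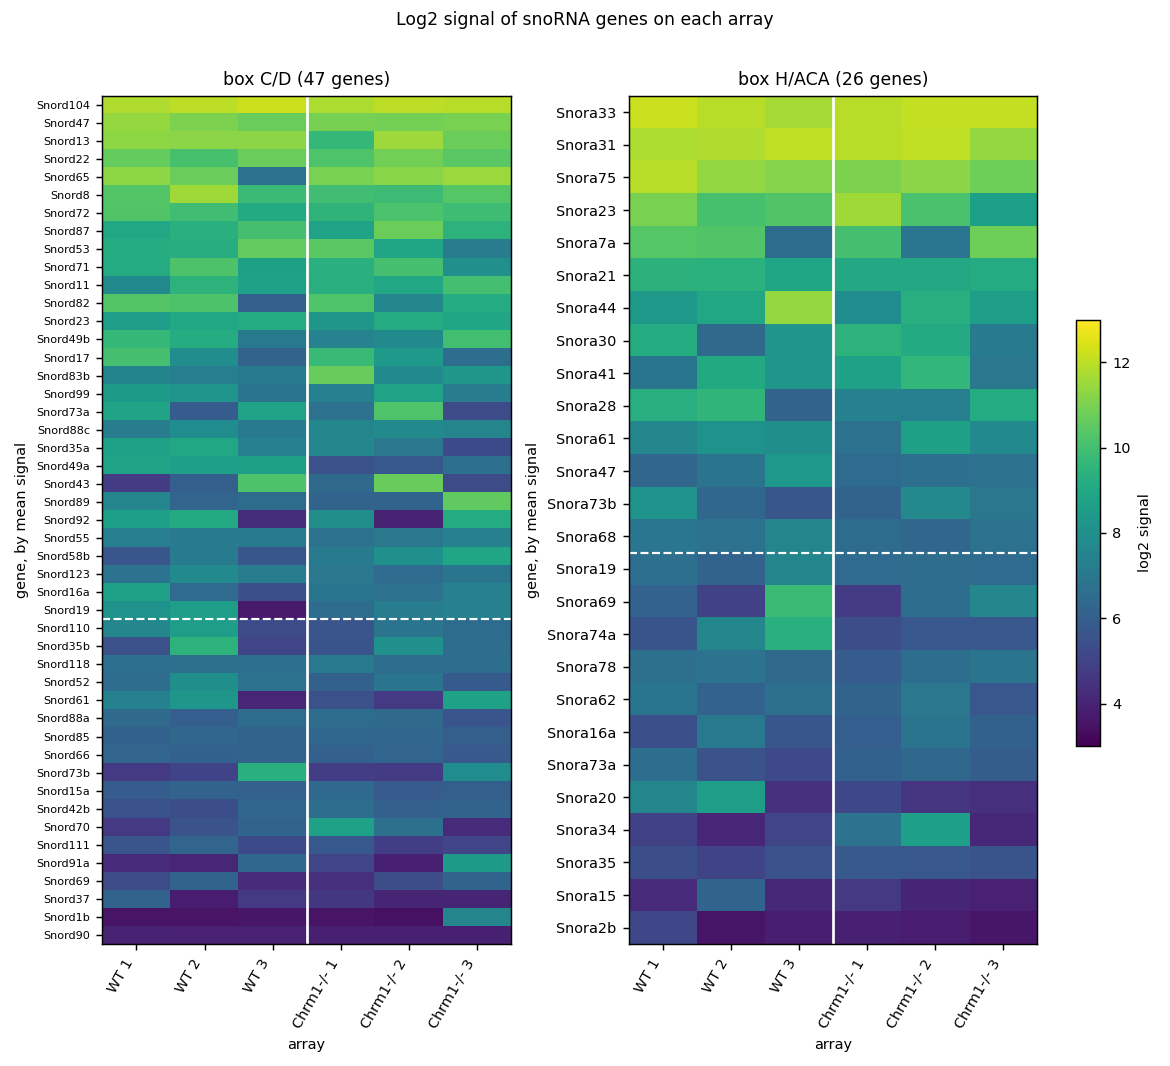
Log2 signal (colour, scale at the right) of the 47 box C/D genes and the 26 box H/ACA genes on each of the 6 arrays, genes ordered by mean signal; the vertical white line parts WT from Chrm1-/- arrays and the dashed line marks the signal filter at 6.77. The first rows of each class, Snord104, Snord47, Snora33 and Snora31, are nearly even across the arrays. Many other rows, some of them high in signal, hold high and low cells within the same genotype, such as Snord65, Snord43, Snord92 and Snora7a.

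Replicate arrays lay farther apart for the snoRNA genes than for most genes. The pooled SD within the groups of 3 arrays had a median of 0.88 over the C/D genes and 0.73 over the H/ACA genes, against 0.17 over all genes. A pooled SD of at least 1 was found for 20 of 47 C/D genes (42.6%) and 11 of 26 H/ACA genes (42.3%), against 242 of 22180 genes (1.09%). These 31 members made up 12.8% of the 242 genes, whereas snoRNA genes made up 0.329% of all genes. In all, 51 of 73 members (69.9%) lay above the 90th percentile of the SD of all genes, 32 of them C/D and 19 H/ACA. Only Snord85 and Snord90 lay below the median SD of all genes. These shares are descriptions of 6 arrays and carry no test.

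The wide spread was found at every signal level. In the 25% of genes with the highest signals, 26 members had a median SD of 0.87 where all genes had 0.237. In the next 25% of genes, 17 members had 0.88 against 0.205. In the 2 lower sets of the same size, 19 members had 0.54 against 0.156 and 11 members had 0.92 against 0.128. The spread was thus not limited to dim members. Genes for microRNAs, another class of short RNA, had a median SD of 0.221 over 479 genes, and 33 of them (6.89%) reached an SD of 1. Their share lay between that of all genes and that of the snoRNA genes. Most microRNA genes were dim, and the 114 at or above the median signal of all genes had a median SD of 0.384. The corresponding medians were 0.22 over all genes at or above that signal and 0.88 over such members. Members with long and short genes differed little: Spearman's rho over the 73 genes was 0.11 between gene length and mean signal and -0.15 between gene length and SD, as a description across genes that share arrays and hosts.

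**Figure D2:**
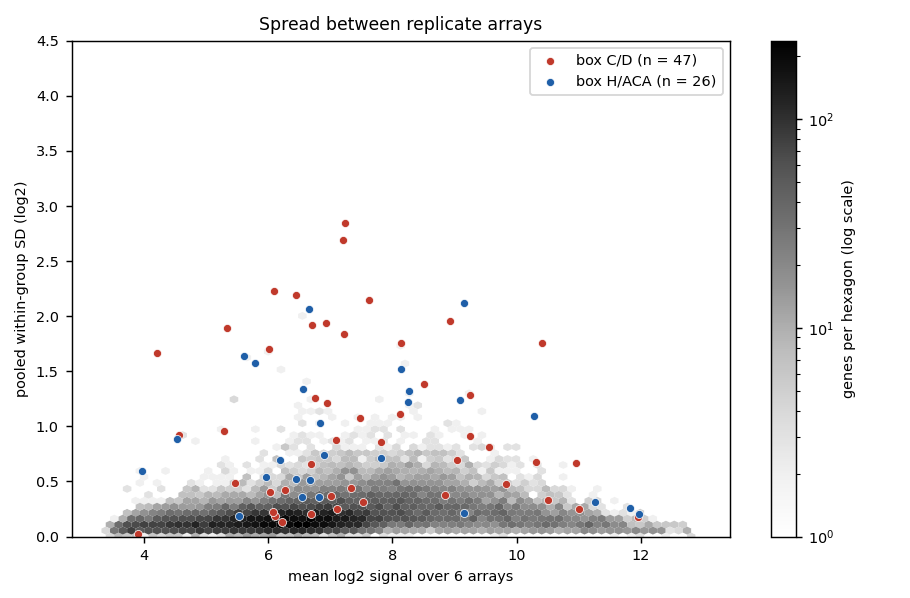
Pooled within-group SD (log2 units) against mean log2 signal over 6 arrays, with all 22180 genes as grey hexagons (darker for more genes, on a log scale), box C/D genes in red and box H/ACA genes in blue. Most snoRNA genes lie above the grey band at every signal level, with 31 of 73 at an SD of 1 or more.

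The widest C/D genes were Snord43, Snord92 and Snord73b, with pooled SDs of 2.85, 2.69 and 2.23. Snord43, in the ribosomal protein gene Rpl3, read 4.76, 6.02 and 10.22 in WT and 6.45, 10.67 and 5.29 in Chrm1-/-. In each group 1 array was above 10 and the rest were below 7, and the highest and lowest arrays lay 60.1-fold apart. Snord92, in the ribosome biogenesis gene Wdr43, read 8.63, 9.11 and 4.30 in WT and 7.95, 3.98 and 9.21 in Chrm1-/-. Here the pattern was the other way up, with 1 low array in each group. Snord73b, in Rps3a1, read 4.70, 5.03 and 9.36 in WT and 4.81, 4.75 and 7.88 in Chrm1-/-, with replicate 3 high in both.

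The widest H/ACA genes were Snora7a, Snora69 and Snora34, with pooled SDs of 2.12, 2.06 and 1.64. Snora69, in the ribosomal protein gene Rpl39, read 6.15, 4.95 and 9.82 in WT and 4.78, 6.62 and 7.61 in Chrm1-/-. WT replicate 3 alone was high. The spread was found within both genotypes: the median SD of all 73 members was 0.784 in WT and 0.523 in Chrm1-/-.

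A range of at least 3 log2 units over the 6 arrays, which is 8-fold, was found for 29 members (39.7%), 21 of them C/D and 8 H/ACA, against 0.712% of all genes. In 9 of these 1 array lay at least 2 log2 units above or below all others. The remaining arrays were not always level: Snora69 without WT replicate 3 ran from 4.78 to 7.61. WT replicate 3 was alone low for Snord65 and Snord19. The array alone high was WT replicate 3 for 2 genes, Chrm1-/- replicate 1 for 2 and Chrm1-/- replicate 3 for 3, among Snord83b, Snord89, Snord70, Snord91a, Snord1b, Snora44 and Snora69. Snord1b, for example, read 3.52, 3.54 and 3.61 in WT and 3.52, 3.44 and 7.56 in Chrm1-/-, which is close to the bottom of the scale on 5 arrays. The other 20 wide members were split between arrays in other ways. These arrays were singled out after their values were seen.

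The arrays did not order the members in the same way. The correlation of log2 signals between pairs of arrays ranged from 0.58 to 0.86 over the 73 members, with a median of 0.748 over 15 pairs, whereas it ranged from 0.967 to 0.977 over all genes. Over the host genes of the members it ranged from 0.955 to 0.992. Arrays of the same genotype had a median correlation of 0.671 over the members and arrays of different genotype 0.756, so members did not sort the arrays by genotype. WT replicate 3 was the lowest of the 6 arrays for 22 members, more than any other array. It held the lowest array weight that limma estimated over the tested genes, 0.613, against a highest of 1.73 for WT replicate 2. The mean of the C/D genes, each centred on its own mean, was -0.38 on WT replicate 3 and between -0.10 and 0.25 on the other arrays. The corresponding mean of the H/ACA genes was 0.07 on WT replicate 3 and between -0.27 and 0.17 on the others, so WT replicate 3 read low for the C/D genes and not for the H/ACA genes.

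For the comparison of genotypes, a gene was tested if its signal averaged 6.77 or more, the median over all genes. Of the members, 43 passed, 29 of them C/D and 14 H/ACA, and 30 did not, 18 of them C/D and 12 H/ACA. Snora73b (6.83) and Snora68 (6.82) lay just inside the filter, and Snord110 (6.75), Snord35b (6.70), Snord118 (6.69) and Snord52 (6.69) just outside. Because the mean runs over both groups, a member can pass through 1 group alone. The mean of 1 group was below the filter for 6 of the 43, namely Snord35a, Snord49a, Snord58b, Snora47, Snora73b and Snora68.

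No snoRNA gene differed between the genotypes after Benjamini-Hochberg adjustment over the 11094 genes tested with limma, two-sided: 0 of 43 members and 0.0% of tested genes had an adjusted p under 0.05. The smallest adjusted p of a member was 0.926. An unadjusted p under 0.05 was found for 3 of 43 members (6.98%), against 2.99% of tested genes. They were Snord49a and Snord35a, lower on the arrays labelled Chrm1-/-, and Snord58b, higher there, all of the C/D class. Each was among the 6 members with 1 group mean below the filter, and passed it through the group in which it was high. All 3 also differed by at least 1.5-fold, against 1.34% of tested genes that met both conditions. The values of the groups did not overlap for 2 of 43 members (4.65%), Snord49a and Snord83b, against 5.79% of tested genes, so this count was close to the background.

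A difference of at least 1.5-fold, whatever its p, was found for 11 of 43 members (25.6%), 6 higher and 5 lower on the Chrm1-/- arrays, against 4.31% of tested genes. The errors of the members were also larger: the standard error of a difference had a median of 0.58 over the members, from 0.15 to 1.87, against 0.17 over all tested genes. The 95% interval of the median member reached 1.42 log2 units to either side, so these arrays limit the differences of most members only loosely, and the interval included 0 for 40 of 43.

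The direction was mixed in both classes. Of the 29 tested C/D genes 14 were higher and 15 lower on the Chrm1-/- arrays, with a median difference of -0.06. Without WT replicate 3 the median of the same 29 genes was -0.26, with 10 higher and 19 lower, and it was -0.495 over the C/D genes that passed the filter on the remaining 5 arrays. Without any other array the median of the 29 lay between -0.09 and 0.11, so the sign of this median depended on which array was left out. Of the 14 tested H/ACA genes 5 were higher and 9 lower, with a median of -0.17, which lay between -0.20 and -0.10 when any array was left out; none had an unadjusted limma p under 0.05, and 2 differed by at least 1.5-fold. Over all members regardless of signal, 23 C/D genes were higher and 24 lower, with a median of -0.06, and 9 H/ACA genes were higher and 17 lower, with a median of -0.24, beside a median of 0.01 over all genes. With no filter on signal, 4 of 73 members (5.48%) had an unadjusted p under 0.05, against 2.56% of all genes, and 4 (5.48%) did not overlap between groups, against 5.39% of all genes. The gene added at p under 0.05 was Snora35, which lies in the serotonin receptor gene Htr2c and read 5.41, 5.07 and 5.53 in WT and 5.80, 5.72 and 5.60 in Chrm1-/-, below the median gene.

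**Figure D3:**
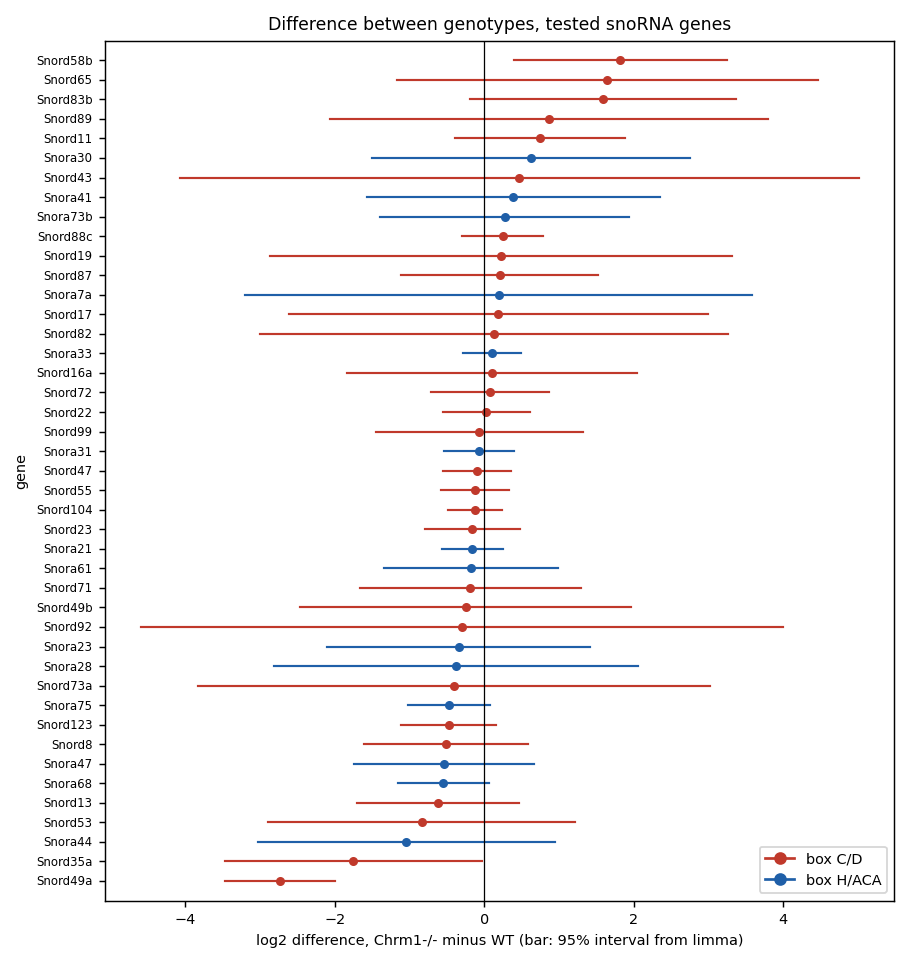
Difference in log2 signal, Chrm1-/- minus WT, for the 43 tested snoRNA genes, with box C/D in red, box H/ACA in blue and bars for the 95% interval from limma. The bars of 40 genes cross 0; those of Snord58b, Snord35a and Snord49a do not, and Snord49a lies farthest to the left.

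Snord49a read 8.76, 8.64 and 8.70 on the WT arrays and 5.49, 5.75 and 6.66 on the Chrm1-/- arrays. The WT arrays were nearly level and every Chrm1-/- array was below them, with replicate 3 the nearest, so the groups did not overlap. The means were 8.70 ± 0.06 (SD, n = 3) and 5.97 ± 0.61 (SD, n = 3). The difference of -2.73 ± 0.30 (SE; 95% interval -3.46 to -2.00) corresponds to a 6.65-fold lower signal on the arrays labelled Chrm1-/-. This was the lowest difference and the smallest p of all 11094 tested genes (limma, unadjusted p = 8.35e-05), yet its adjusted p was 0.926. Snord49a also had the smallest p when all genes were tested with no filter. Without Chrm1-/- replicate 3 the difference was -3.08 with an adjusted limma p of 0.0316, which was the lowest of the alternatives; the others ranged up to 1. The gene was singled out after its rank was seen, and no further cluster for it could be set beside this one.

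The snoRNA genes that share a host with Snord49a did not show the same pattern. Snord49a, Snord49b and Snord65 are C/D genes within the noncoding host gene 2410006H16Rik. Snord49b read 9.67, 9.20 and 7.05 in WT and 7.42, 7.79 and 9.96 in Chrm1-/-, a difference of -0.25 ± 0.91 (SE). Snord65 read 11.30, 10.70 and 6.74 in WT and 11.00, 11.21 and 11.48 in Chrm1-/-, a difference of 1.65 ± 1.16 (SE). WT replicate 3 was the lowest array for both Snord49b and Snord65, while Snord49a was level with the other WT arrays there. The host itself read 11.43, 11.28 and 11.12 in WT and 11.40, 11.65 and 11.61 in Chrm1-/-, a difference of 0.28 ± 0.13 (SE; limma, unadjusted p = 0.081). The signal of the host was thus not lower on the arrays on which Snord49a was low.

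Snord35a read 8.72, 9.0 and 7.35 in WT and 7.61, 6.98 and 5.23 in Chrm1-/-. The lowest WT array lay below the highest Chrm1-/- array, so the groups overlapped. The difference was -1.75 ± 0.71 (SE; 95% interval -3.47 to -0.03), or 3.36-fold lower, with an unadjusted limma p of 0.048 and an adjusted p of 0.996. Snord35a lies in Rpl13a, whose introns hold several snoRNAs known from work on metabolic stress in mouse cells. Of that group of 4, only Snord35a had a cluster with a symbol of its own here, so no neighbour could be set beside it.

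Snord58b, in the ribosomal protein gene Rpl17, read 5.67, 7.16 and 5.69 in WT and 7.09, 8.0 and 8.90 in Chrm1-/-. WT replicate 2 lay just above Chrm1-/- replicate 1, so these groups overlapped too. The difference was 1.82 ± 0.58 (SE; 95% interval 0.40 to 3.24), or 3.54-fold higher, with an unadjusted limma p of 0.020 and an adjusted p of 0.996. Rpl17 read 7.33, 8.87 and 8.35 in WT and 8.09, 8.16 and 8.55 in Chrm1-/-. The difference of the host was 0.08 ± 0.39 (SE), small beside that of the snoRNA gene. Ribosomal protein genes have many near-identical processed copies in the genome, so the signals of such hosts are uncertain.

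Snord83b, in Rpl3, was the other member with groups that did not overlap. It read 7.53, 7.28 and 7.16 in WT and 10.69, 7.77 and 8.29 in Chrm1-/-. The largest part of its difference of 1.59 ± 0.73 (SE; limma, unadjusted p = 0.072) came from Chrm1-/- replicate 1, without which it was 0.71. Rpl3 itself read 11.47, 10.00 and 9.56 in WT and 11.38, 11.03 and 11.88 in Chrm1-/-, a difference of 1.09 ± 0.51 (SE; limma, unadjusted p = 0.077). Rpl3 and Snord83b were both lowest on WT replicate 3, but Rpl3 was highest on Chrm1-/- replicate 3, Snord83b on Chrm1-/- replicate 1 and Snord43, the other member in this host, on Chrm1-/- replicate 2.

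Of the remaining tested members, the smallest unadjusted limma p among H/ACA genes belonged to Snora68 and Snora75. Snora68 read 6.94, 6.74 and 7.59 in WT and 6.53, 6.31 and 6.78 in Chrm1-/-, a difference of -0.55 ± 0.25 (SE; limma, unadjusted p = 0.070). Snora75, in the nucleolin gene, read 11.92, 11.39 and 11.20 in WT and 11.02, 11.28 and 10.80 in Chrm1-/-, a difference of -0.47 ± 0.23 (SE; limma, unadjusted p = 0.081). In both the groups overlapped by 1 array. Snord123, in the noncoding host gene Snhg18, differed by -0.47 ± 0.26 (SE) and Snord11, in Nop58, by 0.75 ± 0.47 (SE). Further named members with intervals that included 0 were Snora44 at -1.04, Snora47 at -0.54, Snord53 at -0.84, Snord8 at -0.51, Snord89 at 0.87 and Snord88c at 0.25. On the higher side among H/ACA genes, Snora30 differed by 0.63, Snora41 by 0.39, Snora73b by 0.27 and Snora33 by 0.10.

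Of 9 genes listed for a role in cutting or maturing the ribosomal RNA precursor, 4 were read by a cluster of their own. Snord13, which acts on small-subunit ribosomal RNA, read 11.30, 11.26 and 11.26 in WT and 9.66, 11.53 and 10.77 in Chrm1-/-. The WT arrays were nearly level and 2 of the Chrm1-/- arrays were below them, a difference of -0.62 ± 0.45 (SE). Snord118, the U8 RNA needed for large-subunit ribosomal RNA, had group means of 6.66 and 6.73. Snora73a and Snora73b, the near-identical U17 copies in Snhg3, had means of 5.80 and 6.70 in WT and 6.13 and 6.97 in Chrm1-/-. Neither Snord13 nor Snora73b had an unadjusted limma p under 0.05, and the other 2 were below the filter. Of other well-known groups, 1 of 10 Gas5 snoRNAs (Snord47) and 1 of 8 Snhg1 snoRNAs (Snord22) were read by a cluster of their own. Clusters named for the brain-enriched snoRNAs of the imprinted regions were not analysed here, since none of the 7 symbols sought was the only symbol of a cluster.

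All 73 members were found in RefSeq, and 70 lay within another gene, which was taken as the host. The 3 others were Snord118, Snord13 and Snord89. The 70 members lay in 56 hosts, of which 11 held at least 2 members; 50 members lay in a protein-coding gene, 18 of them in a ribosomal protein gene, and 20 lay in a long noncoding RNA gene. Members in ribosomal protein genes had a median signal of 7.10 and a median difference between genotypes of 0.05. Members in other protein-coding genes had 6.71 and -0.13, and members in noncoding hosts 7.81 and -0.15. Median SDs were 0.98, 0.94 and 0.71 in the same order, so the spread was large with each kind of host.

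Host genes varied far less than the snoRNA genes inside them. For 57 members a host was read on the same arrays, through 43 distinct host genes. The member had the larger pooled SD in 55 of the 57, with a median of 0.88 for the members and 0.104 for their hosts. Hosts were high in signal, with a median of 11.17, and 31 of the 43 lay in the top 10% of genes. The size of the difference between genotypes had a median of 0.37 for the members and 0.06 for their hosts, and was larger in the member for 47 of the 57. The sign was shared by 37 of the 57. Over these pairs, Pearson's r was 0.33 and Spearman's rho 0.29 for the differences, and 0.29 and 0.27 for the mean signals, as descriptions over pairs that share arrays and in part share hosts.

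**Figure D4:**
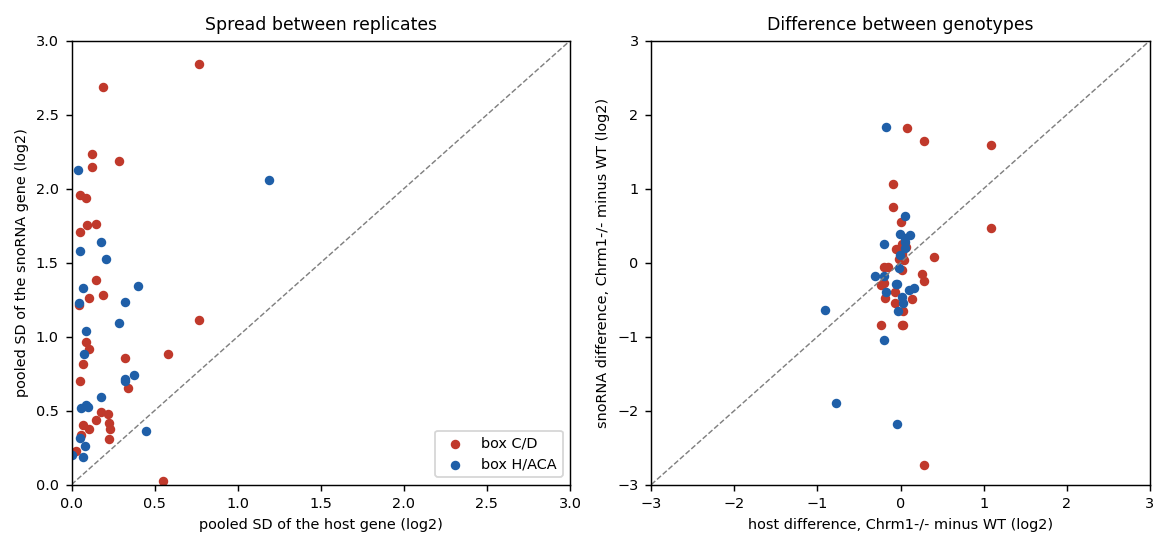
Left, pooled within-group SD of 57 snoRNA genes against that of the host gene that spans them; right, the difference Chrm1-/- minus WT of the same pairs, all in log2 units, with box C/D in red, box H/ACA in blue and dashed lines of equality. In the left panel 55 of the 57 points lie above the line; in the right panel most points form a narrow upright band, since hosts differed little.

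Rpl39 was the host with the largest spread. It read 7.56, 6.87 and 10.06 in WT and 7.21, 7.24 and 7.32 in Chrm1-/-, and Snora69 had its highest value on the same array, WT replicate 3. On the Chrm1-/- arrays Rpl39 was level, while Snora69 read 4.78, 6.62 and 7.61. Snhg4 was the only host with an unadjusted limma p under 0.05, and its values of 10.31, 10.92 and 9.88 in WT and 9.71, 9.73 and 9.35 in Chrm1-/- did not overlap. The difference was -0.77 ± 0.28 (SE), with an unadjusted limma p of 0.031 and an adjusted p of 0.996. Snora74a, the H/ACA gene within Snhg4, read 5.58, 7.59 and 9.35 in WT and 5.39, 5.72 and 5.72 in Chrm1-/-. Its WT arrays ran from among the lowest values to the highest, with a difference of -1.90, and its mean was below the filter.

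The 11 hosts with several members gave 18 pairs of snoRNA genes that share a host. Both genes of a pair were lowest on the same array in 5 pairs and highest on the same array in 5, neither was shared in 11, and the difference between genotypes had the same sign in 10. The pairs that shared both were Snord65 and Snord49b, Snord19 and Snord69 in Gnl3, and the near-identical Snora73a and Snora73b. Snord69 had its highest value, 6.22, on 1 WT and 1 Chrm1-/- array alike, and the WT array, also the highest of Snord19, was counted. In Gnl3, the gene for nucleostemin, Snord19 read 8.14, 8.60 and 3.71 in WT and 6.54, 7.19 and 7.38 in Chrm1-/-, and Snord69 read 5.30, 6.22 and 4.27 in WT and 4.33, 5.38 and 6.22 in Chrm1-/-. Both were lowest on WT replicate 3, while Gnl3 itself lay between 11.52 and 11.73. Other pairs went apart. In Snhg12, which holds Snord99, Snora44, Snora61 and Snora16a, WT replicate 3 was the highest array of Snora44 at 11.43 and the lowest of Snord99 at 6.86, while the host read 10.30 there. In the nucleolin gene, Snord82 read 10.32, 10.21 and 6.06 in WT and 10.23, 7.58 and 9.18 in Chrm1-/-, while Ncl lay between 12.30 and 12.42 throughout. Snora75, in the same host, was at 11.20 on the array on which Snord82 was at 6.06. In Rps3a1, Snord73a read 8.83, 5.91 and 8.75 in WT and 6.73, 10.24 and 5.31 in Chrm1-/-, and its neighbour Snord73b was lowest or near its lowest on the array where Snord73a was highest.

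**Figure D5:**
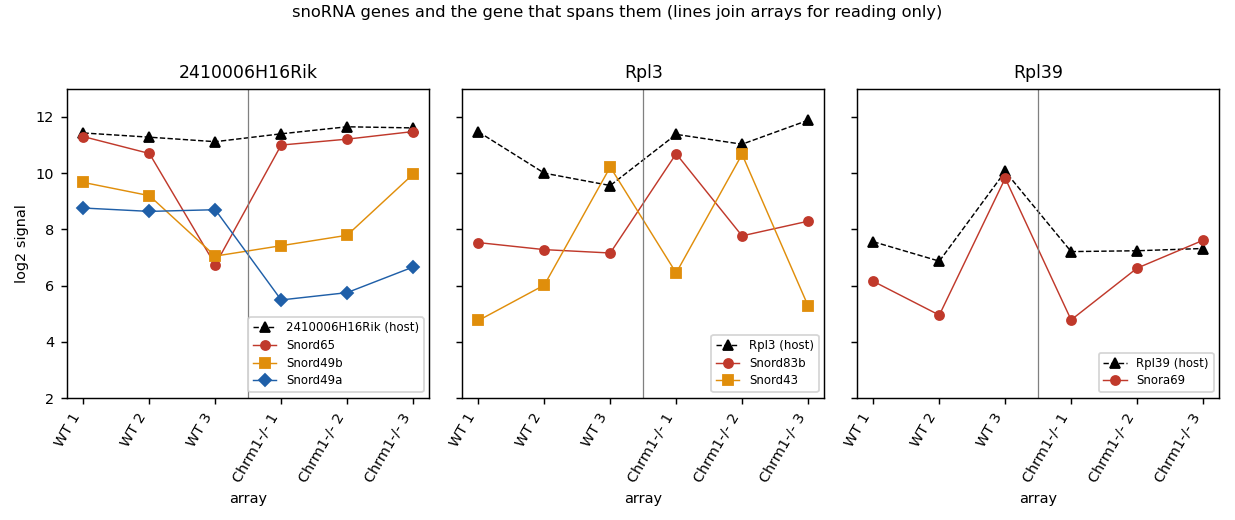
Log2 signal on each of the 6 arrays of 3 host genes (black triangles, dashed) and of the snoRNA genes inside them (coloured markers), with WT left and Chrm1-/- right of the grey line; lines join arrays for reading only. Snord49a is level in WT and lower in Chrm1-/- while its host 2410006H16Rik stays above 11; in Rpl3 the 2 snoRNA genes peak on different arrays, and in Rpl39 host and snoRNA gene peak together on WT replicate 3.

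The genes for proteins that make and carry snoRNAs were read together with 13 RNA polymerase I factors, and as a set they were steady. Of 50 symbols sought, 42 were on the array and 41 were tested; 14 were higher and 27 lower on the Chrm1-/- arrays, and none had an unadjusted limma p under 0.05. Their median difference was -0.06 and their median SD 0.18. Of the C/D core proteins, 3 of 5 symbols sought were read, and fibrillarin was not among them. Nop56 differed by 0.03 ± 0.12 (SE), Nop58 by -0.10 ± 0.10 and Snu13 by 0.06 ± 0.15. Of the H/ACA core proteins, dyskerin (Dkc1) differed by 0.06 ± 0.12 (SE), Nhp2 by -0.13 ± 0.17, Nop10 by -0.10 ± 0.17 and Gar1 by -0.06 ± 0.10. These intervals are narrow beside those of the snoRNA genes. Among 11 tested assembly factors 2 were higher and 9 lower; the smallest p belonged to Tgs1, which modifies the cap of some snoRNAs, at -0.14 ± 0.11 (SE), and Pih1d1, a subunit of the assembly chaperone complex, at -0.19 ± 0.20. Among 10 factors listed for trimming snoRNA ends or opening the intron lariat 3 were higher and 7 lower. The list also holds Xpo1, a nuclear export receptor. Exosc10, the nuclear exosome nuclease, at 0.27 ± 0.15 (SE) and its cofactor C1d at 0.30 ± 0.14 had the smallest p of these and groups that did not overlap, while Mphosph6, another exosome cofactor, was at -0.35 ± 0.21. Groups without overlap were found for 2 of the 41 protein genes (4.88%), against 5.79% of tested genes, so this count too was close to the background. Among 13 RNA polymerase I factors, which transcribe the ribosomal RNA that snoRNAs modify, 6 were higher and 7 lower, with Polr1d at 0.22 ± 0.13 (SE) and Rrn3 at 0.24 ± 0.16.

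RNAs built like snoRNAs but working elsewhere were also read. Scarna17, a guide RNA of the Cajal body, read 11.82, 10.29 and 12.27 in WT and 7.99, 11.72 and 10.61 in Chrm1-/-, a difference of -1.35 ± 1.02 (SE). Its pooled SD was 1.54, whereas 4 further Cajal body RNAs, all below the filter, had smaller SDs: Scarna2 0.475, Scarna6 0.095, Scarna8 0.558 and Scarna10 0.205. Terc, the telomerase RNA, which ends in an H/ACA domain, read 7.65, 7.26 and 8.47 in WT and 7.69, 7.56 and 7.04 in Chrm1-/-, a difference of -0.36 ± 0.34 (SE). Neither had an unadjusted limma p under 0.05.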

How the data were processed

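The RNA of the sorted cells was purified on a small-scale column, per the labels' protocols, then amplified with a NuGEN system and hybridised to Affymetrix arrays, per the series design text. That text says that the authors ran the chips through Affymetrix's analysis software; version, summarization and normalization were not given in the sources used here. Values deposited by the authors, a row per transcript cluster, were read as log2 signal, judged by their range of 3.02 to 13.67 since no scale is named, and were used without further normalization. Of 41345 transcript clusters, 23521 carried 1 gene symbol, 1814 carried several, and 16010 carried no symbol in the annotation used. The number of arrays limits the precision.

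Genes at or above the median mean signal were tested with limma 3.58.1 in R 4.3.3 (lmFit and eBayes, WT against Chrm1-/-, n = 3 and 3, two-sided, Benjamini-Hochberg adjusted), and the fit was tested on simulated data. Counts used pandas 2.3.3 and numpy 2.4.6 in Python 3.11.15, and plots matplotlib 3.10.9. An exact permutation test of 3 arrays against 3 cannot go below 0.1. The host of a member was the smallest other RefSeq gene spanning it, without regard to strand, which the table used does not give; 6 members had more than 1 such gene, and the host of 1 member is not reported here. Members named were the 8 of highest signal in each class, the 6 C/D and 4 H/ACA genes of smallest p in each direction, the 3 widest in each class, listed cluster and cleavage snoRNAs, and their hosts; other members were named after their values were seen. The members and the gene lists were chosen with earlier results of these data known. Alternatives were other signal filters, normalization, cluster choice, moderation, array weights, a replicate block, and leaving out each array. Snora19 had 2 clusters with identical values.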

Additional observations from a re-analysis of the deposited data

How the results depend on the processing

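Under 9 settings other than leaving out an array, the differences of the 31 tested members named by the rule kept their sign in all but 1 of 268 comparisons: Snora7a was -0.58 with array weights. Most of these comparisons could not change a sign. Signal filters, moderation and the replicate block leave the difference itself as it is, as does the mean of clusters for genes with 1 cluster. No member passed an adjusted p of 0.05 in any of the 9 settings. Members with an unadjusted limma p under 0.05, 3 of 43, numbered 1 without moderation, 1 at a threshold of 0.01 and 5 with the replicate block. At or above the 75th percentile of signal the count was 0, because that filter leaves out all 3 of these genes. The replicate numbers showed no pairing of the arrays over the tested genes: deviations of same-numbered arrays correlated at -0.031, 0.00882 and -0.0113. Over the members these correlations were 0.23, -0.267 and -0.191, and differently numbered arrays were not compared in this way. Leaving out each array in turn gave between 0 and 1 members past the adjusted p, between 1 (without Chrm1-/- replicate 3) and 6 (without WT replicate 3) past the unadjusted p, and between 0 and 2 protein genes past it. Of the 31 members 16 kept their sign whichever array was left out and 15 did not; 8 of these 186 values, for members below the filter without that array, are differences of means with no test. Snora23 ranged from -1.07 to 0.40, Snora30 from -0.13 to 1.34, Snora31 from -0.20 to 0.12, Snora33 from -0.028 to 0.24, Snora41 from -0.20 to 1.11, Snora47 from -0.97 to 0.038, Snora73b from -0.24 to 0.97, Snora7a from -1.08 to 1.35, Snord22 from -0.16 to 0.17, Snord43 from -1.13 to 2.08, Snord47 from -0.26 to 0.09, Snord72 from -0.25 to 0.32, Snord87 from -0.34 to 0.66, Snord89 from -0.58 to 1.61 and Snord92 from -1.82 to 1.23. The cause was not tested.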
